A study of Canis lupus familiaris with 5 samples.

Results

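The runt-related transcription factors RUNX1, RUNX2 and RUNX3 and their shared partner CBFB were followed in single nuclei of dog cephalic vein, a superficial forelimb vein used as a bypass conduit. The 4 genes were taken by symbol, after removal of a trailing number, from the 35531 features that name a gene, and all 4 were present once. They were selected on measured values of these libraries, their UMIs (unique molecular identifiers, the counted RNA molecules) and their shares of positive nuclei by library and cell class. Their levels are therefore given as a description, and no test is placed on them. The grafted group is a single vein segment of dog 1, taken 24 h after it was implanted as a carotid bypass (n = 1 library). The distended group is vein from dogs 1 and 2 (n = 2) that had been distended at harvest by injecting saline with papaverine (a vessel relaxant) and bivalirudin (a thrombin inhibitor) against a closed outflow, a procedure of about 30 min. The control group is undistended vein of the same 2 dogs (n = 2). The grafted segment had been distended in this way before implantation, and its animal also received systemic bivalirudin. Both animals were anesthetized male mongrel dogs without a stated age, no genetic change is named, and all segments were snap-frozen. With 1 grafted library from 1 animal, the graft has no replicate error of its own.

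RUNX proteins bind DNA through the runt domain, and CBFB, which does not bind DNA itself, joins that domain and strengthens its hold. RUNX1 is known as a master regulator of blood cell formation and of the endothelium from which the first blood stem cells arise, RUNX2 as the factor required for bone formation, and RUNX3 as a regulator of lymphocyte and dendritic cell lineages. RUNX1 and RUNX2 are also active in mesenchymal cells, and RUNX2 is known in arteries as a marker of smooth muscle that takes on bone-like features.

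The graft library was the deepest, with 11302558 UMIs over 2705 barcodes, against 2667701 and 410604 UMIs over 2162 and 242 barcodes of distended dogs 1 and 2, and 2337436 and 1305862 UMIs over 1048 and 1234 barcodes of control dogs 1 and 2. Nuclei with enough detected genes numbered 2705 in the graft, 2108 and 241 in distended vein and 765 and 1036 in control vein, and all levels of the members rest on these. A group of 4 features (LOC119877772 to LOC119877775) took 2.98% of UMIs in the graft, 38.5% and 26.5% in distended vein and 70.4% and 61.4% in control vein. Levels are therefore given as CPM, UMIs per 1000000 UMIs of the remaining named features. Intervals are exact 95% intervals and cover counting error only. Ribosomal protein transcripts took 5.92% of the remaining UMIs in the graft, 0.518% and 9.06% in distended vein and 2.57% and 0.526% in control vein. Libraries shared 4 cell barcodes in all.

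RUNX1 was the member with the highest count in the graft. It had 11128 UMIs in grafted dog 1, 50 and 42 UMIs in distended dogs 1 and 2, and 14 and 33 UMIs in control dogs 1 and 2. In CPM this came to 1021 in the graft, 33.4 and 150 in distended vein, and 28.0 and 97.2 in control vein. The graft lay above all 4 other libraries, while distended and control vein overlapped. Pooled over dogs, the grafted level was 18.2 times that of control vein (interval 13.7 to 24.8) and 19.7 times that of distended vein (16.1 to 24.5). Distended over control vein gave 0.924 pooled (0.643 to 1.34), but 1.19 (0.648 to 2.33) within dog 1 and 1.55 (0.956 to 2.52) within dog 2, all of them with intervals that include no difference. The pooled values lean on the deeper library of each group. On TMM-scaled counts the log2 fold change of grafted against distended vein was 3.48, but 2.79 if distended dog 1 was omitted and 4.80 if distended dog 2 was, and against control vein it was 3.87, with 3.31 to 5.08 when 1 library was left out. Within dog 1, the only animal with all 3 conditions, the graft stood 36.4 times above control (21.7 to 66.7) and 30.6 times above distended vein (23.2 to 41.2). In sums over whole vein, fewer cells of a type and less RNA per cell cannot be told apart.

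RUNX2 had 1076 UMIs in the graft, 9 and 4 in distended dogs 1 and 2, and 5 and 4 in control dogs 1 and 2. These were 98.7 CPM in the graft, 6.01 and 14.3 CPM in distended vein, and 10.0 and 11.8 CPM in control vein. The graft was again the highest library, and the controls lay between the distended libraries. The pooled grafted level was 9.20 times that of control (4.83 to 20.2) and 13.5 times that of distended vein (7.86 to 25.4).

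RUNX3 was sparse everywhere. It had 128 UMIs in the graft, 12 and 0 in distended dogs 1 and 2, and 3 and 1 in control dogs 1 and 2. The graft stood at 11.7 CPM, distended vein at 8.01 and 0 CPM, and control vein at 6.0 and 2.95 CPM. The ratio of the grafted to the control level was 2.46, with an interval of 0.939 to 9.18 that includes no difference, and to distended vein it was 1.74 (0.962 to 3.45). In distended dog 2 a count of 0 allows up to 10.7 CPM (3 counts), so its distance from the graft was not detectable at this depth.

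CBFB, the non-DNA-binding partner, had 1562 UMIs in the graft, 76 and 17 in distended dogs 1 and 2, and 14 and 17 in control dogs 1 and 2. The levels were 143 CPM in the graft, 50.7 and 60.8 CPM in distended vein, and 28.0 and 50.1 CPM in control vein. In CPM, CBFB thus ordered the groups as graft, distended and control. The lower distended and the higher control library were within counting error of each other. On TMM-scaled counts distended dog 1 (28.3) lay below control dog 2 (28.5), so distended and control vein overlapped. How many of all genes showed such an order was not counted. The grafted level was 3.88 times control (2.72 to 5.73), and distended over control gave 1.42 (0.934 to 2.20).

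**Figure D1:**
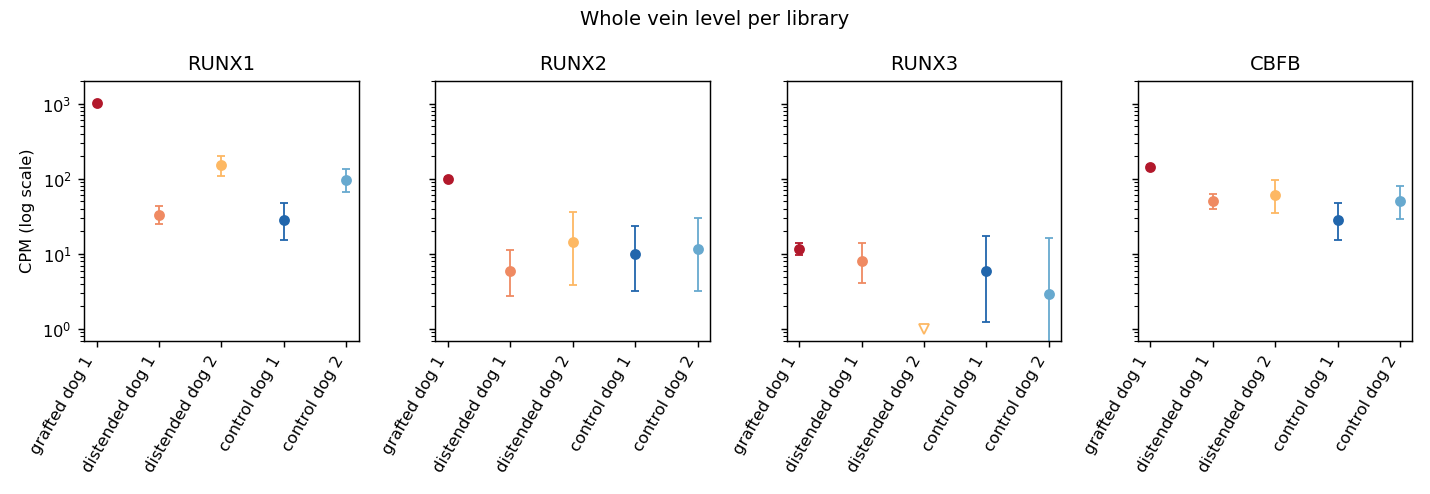
Level of each member in whole vein (CPM, log scale) for grafted dog 1, distended dogs 1 and 2 and control dogs 1 and 2. Points are libraries, bars exact 95% counting intervals and open triangles libraries with 0 UMIs. The graft is the highest library in all 4 panels, for genes selected on these values. How many of all genes were highest in the graft was not counted.

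Nuclei were clustered with the 4 genes left out, and clusters were named "-like" from marker lists, so the members took no part in defining the classes. Fibroblast-like nuclei made up 29.3% of the graft, 57.5% and 20.3% of distended and 6.41% and 37.5% of control vein, and endothelial-like nuclei made up 36.9% of the graft, 25.3% and 68.5% of distended and 32.8% and 40.2% of control vein. Unnamed clusters held 21.5% of the grafted nuclei, 5.27% and 7.88% of the distended and 53.7% and 15.1% of the control nuclei. Grafted and control nuclei of a class mostly lay in different clusters: 788 of 793 grafted fibroblast-like nuclei were in cluster 1, and 337 of 388 of control dog 2 in cluster 5. Likewise 993 of 998 grafted endothelial-like nuclei were in cluster 2, and 365 of 416 of control dog 2 in cluster 8. Cluster 10 held 371 of 534 such nuclei of distended dog 1 and 237 of 251 of control dog 1. In distended dog 2, 131 of 165 were in cluster 9, led by BTNL9 and ENPP2 among others. The endothelial-like nuclei compared between libraries were thus not alike in their clusters.

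Fibroblast-like nuclei, the matrix-producing cells of the adventitia and wall, held 67.2% of all RUNX1 UMIs of the graft with 15.8% of its total UMIs. They carried 7476 RUNX1 UMIs in 793 nuclei of the graft, 24 in 1213 nuclei of distended dog 1, 35 in 49 nuclei of distended dog 2, 0 in 49 nuclei of control dog 1 and 9 in 388 nuclei of control dog 2. The level was 4336 CPM in the graft, 31.4 and 1294 CPM in distended dogs 1 and 2, and 0 and 83.6 CPM in control dogs 1 and 2. The graft was the highest library and distended dog 2 the next, with distended dog 1 below control dog 2. Over pooled controls the fold was 56.2 (29.6 to 123). Over pooled distended vein it was 58.2 (45.1 to 76.5), but 138 (92.8 to 216) without distended dog 2 and 3.35 (2.41 to 4.82) without distended dog 1. The 49 nuclei of control dog 1 were shallow (median 149 UMIs), and their 0 allows up to 338 CPM. Control vein thus rests on dog 2 here.

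The 49 fibroblast-like nuclei of distended dog 2 stood apart from those of distended dog 1. Of these, 48 lay in cluster 1, which otherwise held only the 788 grafted nuclei. At the finer resolution 1.5, 8 of them stayed with 781 grafted nuclei at 1658 CPM of RUNX1 (16 UMIs), and 40 formed a cluster of their own at 1111 CPM (19 UMIs). Markers of other cells in these 49 nuclei came to 0 UMIs over 13 macrophage markers and 7 UMIs over 12 neutrophil markers. Distended dog 2 and the graft shared 0 cell barcodes. Whether these 49 nuclei came from another library's material was not tested, and the 1294 CPM, the share of positive nuclei and the 3.35-fold ratio above all rest on them.

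In the same class, 12 fibroblast markers summed to 3213 CPM in the graft, 13464 and 5471 CPM in distended vein, and 9676 and 10891 CPM in control vein, with C7 at 0 in the graft. The 13 macrophage markers summed to 134 CPM in grafted, 87.7 and 0 CPM in distended and 338 and 130 CPM in control fibroblast-like nuclei, so the graft was within the range of the controls. C1QA, C1QB and C1QC were at 0 in grafted and in all other fibroblast-like nuclei. The 12 neutrophil markers summed to 215 CPM in the graft, 11.8 and 259 CPM in distended vein and 0 and 121 CPM in control vein. Their part in the RUNX1 level was not tested.

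**Figure D2:**
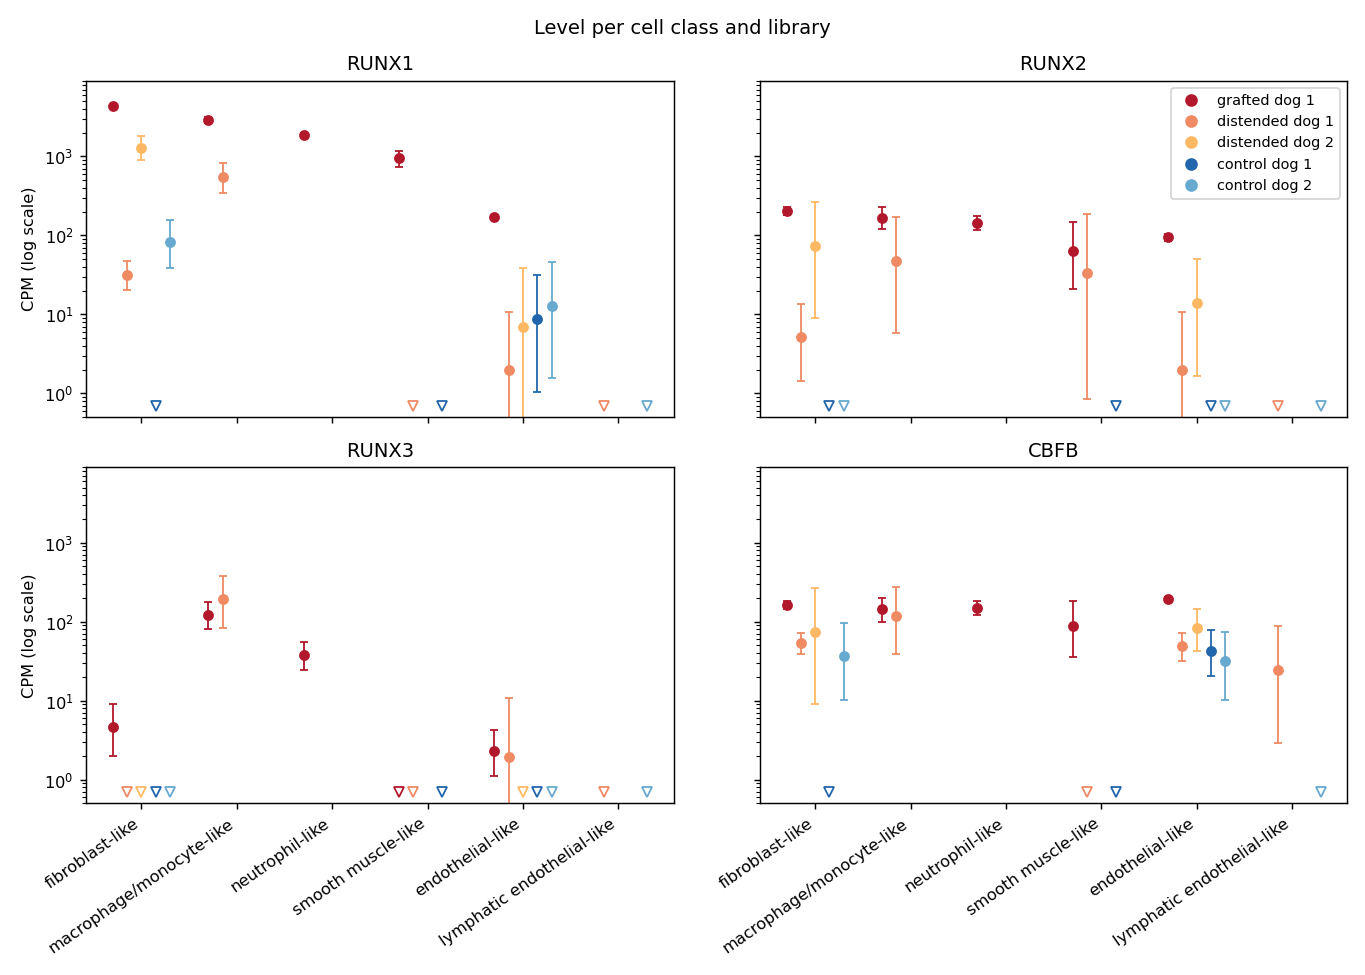
Level of each member (CPM, log scale) by cell class where a library held 20 or more nuclei of that class, colored by library from graft through distended to control. Bars are exact 95% counting intervals and open triangles mark 0 UMIs; RUNX1 in the graft runs down from 4336 CPM in fibroblast-like to 171 CPM in endothelial-like nuclei, and CBFB varies least between grafted classes.

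The classes named from leukocyte markers were next in the graft. Macrophage/monocyte-like nuclei had 2894 CPM of RUNX1 (2681 to 3118, 181 nuclei) and neutrophil-like nuclei 1883 CPM (1780 to 1990, 94 nuclei). The T/NK-like class, at 1479 CPM (938 to 2220), rested on 23 UMIs in 16 nuclei. Smooth muscle-like nuclei followed at 945 CPM (742 to 1186, 41 nuclei), and endothelial-like nuclei came last at 171 CPM (159 to 184, 998 nuclei). Counting intervals of neighbours in this order did not overlap, except those of the T/NK-like class, which overlapped the neutrophil-like and the smooth muscle-like intervals. The name of the neutrophil-like class rests on 11 of 12 detected markers, which summed to 2169 CPM, but 14 of 14 endothelial markers summed to more in the same nuclei, at 3311 CPM. None of its 10 leading genes was a neutrophil marker, and its median depth of 5321 UMIs was 2.26 times that of the library. The part of other cells' RNA in its member levels was not tested. Unnamed clusters led by immune genes were in the same range. A cluster of 62 grafted nuclei led by DSCAML1, ACOXL and the cytokine receptor FLT3 had 2526 CPM, and a cluster of 116 led by IL5RA had 2005 CPM.

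In macrophage/monocyte-like nuclei RUNX1 was also found before grafting. The level was 2894 CPM in the graft and 549 CPM (348 to 824) in 83 nuclei of distended dog 1. The other libraries held few such nuclei, with 5 RUNX1 UMIs in 7 nuclei of distended dog 2 (1352 CPM, 439 to 3155), 10 in 8 nuclei of control dog 1 (3261 CPM, 1564 to 5996) and 5 in 19 nuclei of control dog 2 (932 CPM, 303 to 2176). The graft thus lay above both distended libraries but between the 2 controls. The pooled grafted level was 1.63 times that of control (0.979 to 2.92), which includes no difference, and 4.71 times that of distended vein (3.23 to 7.14). The nuclei compared were not alike in their clusters or markers. Of the 181 grafted nuclei, 149 lay in a cluster led by MSR1 and PTGER2 among others, and 59 of the 83 in distended dog 1 lay in one led by CD209, TIMD4, F13A1 and MRC1. The 13 macrophage markers summed to 1754 CPM in the graft and 12915 CPM in distended dog 1.

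Smooth muscle-like nuclei, the contractile cells of the media, carried 74 RUNX1 UMIs in 41 nuclei of the graft, 0 in 44 nuclei of distended dog 1, and 0 in 40 and 18 nuclei of control dogs 1 and 2. Against a floor of 3 counts over the group, the grafted level was 10.0-fold that of control and 9.48-fold that of distended vein. The exact lower limits of these folds were 7.93 and 7.52. All 41 grafted nuclei came from a cluster apart from that of distended dog 1 and the controls. The grafted cluster also held the 1 smooth muscle-like nucleus of distended dog 2, which had 0 RUNX1 UMIs and is part of pooled distended vein. Their 10 smooth muscle markers summed to 4571 CPM, against 20356 CPM in distended dog 1 and 23346 CPM in control dog 1. Neutrophil markers summed to 689 CPM in grafted nuclei, 0 CPM in distended dog 1 and 78.6 CPM in control dog 1, and their part was not tested. The 12 fibroblast markers summed to 843 CPM in grafted nuclei (66 UMIs, 7 of 12 markers above 0, with PDGFRA and DPT among those at 0), 3943 CPM in distended dog 1 and 2201 CPM in control dog 1. Their part was not tested either.

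Endothelial-like nuclei, whose clusters differed between libraries, had 743 RUNX1 UMIs in 998 nuclei of the graft. There were 1 and 1 in 534 and 165 nuclei of distended dogs 1 and 2, and 2 and 2 in 251 and 416 nuclei of control dogs 1 and 2. The levels were 171 CPM in the graft, 1.95 and 6.86 CPM in distended and 8.62 and 12.7 CPM in control vein. Against pooled controls the ratio was 16.6 (6.47 to 61.2). Transcripts of fibroblasts were used to gauge RNA from outside the nuclei. Over 7 fibroblast markers with at least 100 UMIs in grafted fibroblast-like nuclei, the level in endothelial-like nuclei was 2.34% to 9.53% of the fibroblast-like level (median 3.64%). RUNX1, at 3.94%, was within that range. Whether this RUNX1 was expressed by the endothelium or came from outside these nuclei was not tested. A UMI of PDGFRA, a receptor of fibroblasts, was found in 17.4% of these endothelial-like nuclei and in 70.4% of the fibroblast-like ones, against 32.3% and 95.2% for RUNX1.

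The same gauge placed RUNX1 above the fibroblast markers in the macrophage/monocyte-like and neutrophil-like classes. In macrophage/monocyte-like nuclei RUNX1 stood at 66.7% of its fibroblast-like level, against 17.1% to 39.5% for the 7 markers. In neutrophil-like nuclei it was 43.4%, against 16.2% to 23.3%. In smooth muscle-like nuclei RUNX1, at 21.8%, lay inside the wide marker range of 0% to 84.5%. COL1A1 (40.02%), COL1A2 (52.7%) and COL6A3 (84.5%) were above it. PDGFRA (0%), DPT (0%), DCN (2.77%) and COL3A1 (8.72%) were below it. Whether this RUNX1 was expressed by these nuclei or came from outside them was not tested.

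**Figure D3:**
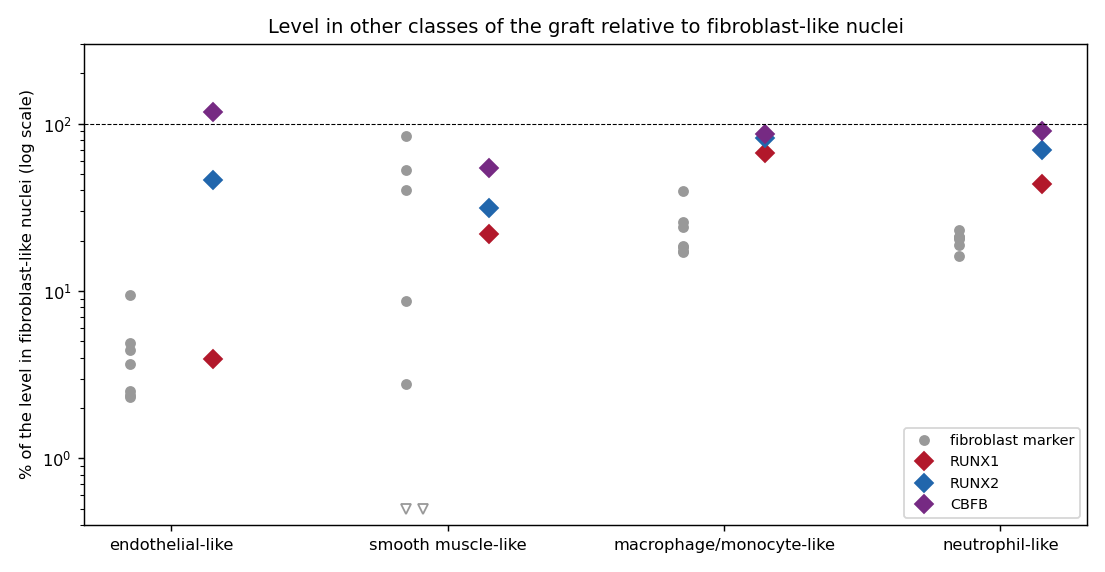
Level in other classes of the graft as a percent of the level in fibroblast-like nuclei (log scale), for 7 fibroblast markers (gray; open triangles are 0) and for RUNX1, RUNX2 and CBFB. In endothelial-like nuclei RUNX1 (3.94%) is among the fibroblast markers, whereas RUNX2 (46.3%) and CBFB (118%) are above them.

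The share of RUNX1-positive nuclei followed the levels. In fibroblast-like nuclei it was 95.2% (93.5 to 96.6) in the graft, 1.32% and 40.8% in distended dogs 1 and 2, and 0 of 49 nuclei and 2.32% in control dogs 1 and 2. Shares rise with depth, and median UMIs were 1804 in the graft, 508 and 416 in distended and 149 and 246 in control fibroblast-like nuclei. Thinned to 500 UMIs per nucleus, the shares were 81.6% in the graft, 1.26% and 41.7% in distended vein and 0% in control dog 2. Thinning left out 6 grafted, 579 and 37 distended, and 48 and 366 control nuclei as too shallow, so that 12 nuclei of distended dog 2 and 22 of control dog 2 remained. Thinned to 200 UMIs, the planned setting, the shares were 54.7% in the graft and 0.594% and 20.4% in distended dogs 1 and 2. In control dogs 1 and 2 they were 0 of 12 nuclei and 1.56% of 256 nuclei. In endothelial-like nuclei the shares were 32.3% in the graft, 0.187% and 0.606% in distended vein and 0.797% and 0.481% in control vein. Thinned to 500 UMIs they came to 7.98% in the graft, 0% and 0% in distended vein and 0.599% and 0% in control vein. Thinned to 200 UMIs they came to 3.21% in the graft, 0% and 0% in distended vein and 0.398% and 0.291% in control vein.

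**Figure D4:**
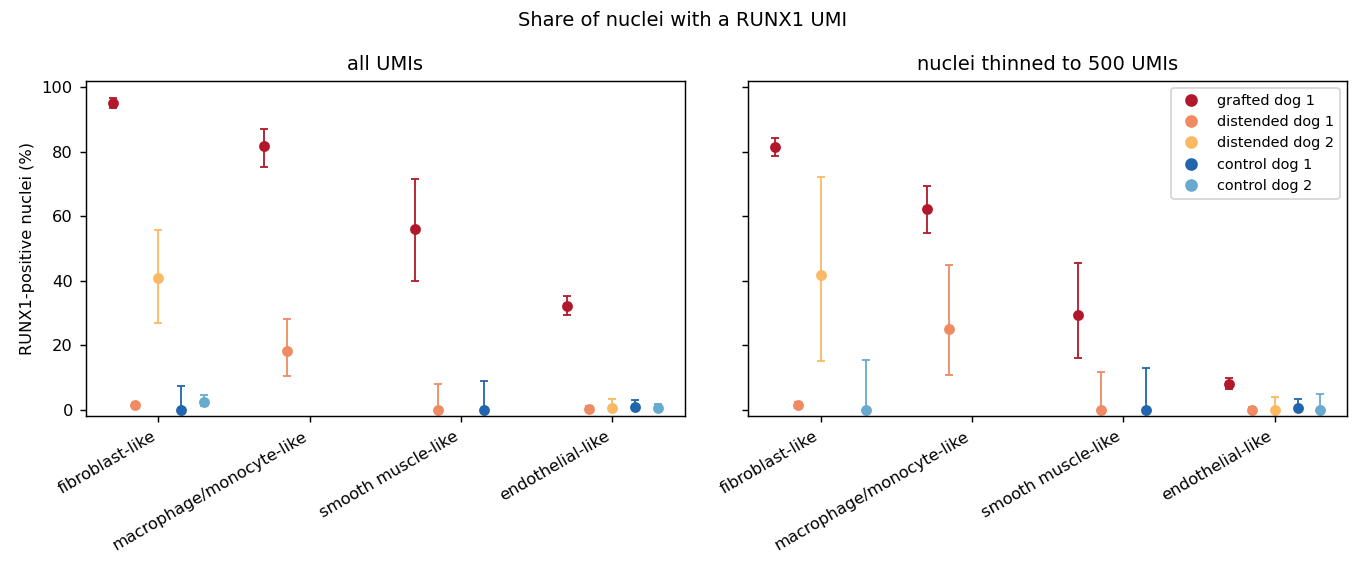
Share of nuclei with at least 1 RUNX1 UMI (%) by cell class and library, with all UMIs (left) and with each nucleus thinned to 500 UMIs (right). Bars are exact 95% intervals; in fibroblast-like nuclei the graft keeps 81.6% after thinning, while the endothelial-like share is 7.98%.

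Within the graft, RUNX1 was spread over nearly the whole fibroblast-like class and was not carried by a few nuclei. Of 793 nuclei, 38 had 0 UMIs, 49 had 1, 223 had 2 to 5 and 483 had over 5. The median was 7 UMIs. The 80 nuclei with the most RUNX1 held 31.0% of its UMIs. Across 4 equal bins of sequencing depth the level was nearly flat, at 4630, 4533, 4459 and 4134 CPM from the shallowest to the deepest bin. In endothelial-like nuclei 676 of 998 had 0 UMIs and 28 had over 5, and the 100 nuclei with the most held 69.0% of the UMIs. The neutrophil-like class held the nucleus with the most RUNX1, at 176 UMIs, and the 10 nuclei with the most held 39.9% of that class's UMIs.

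**Figure D5:**
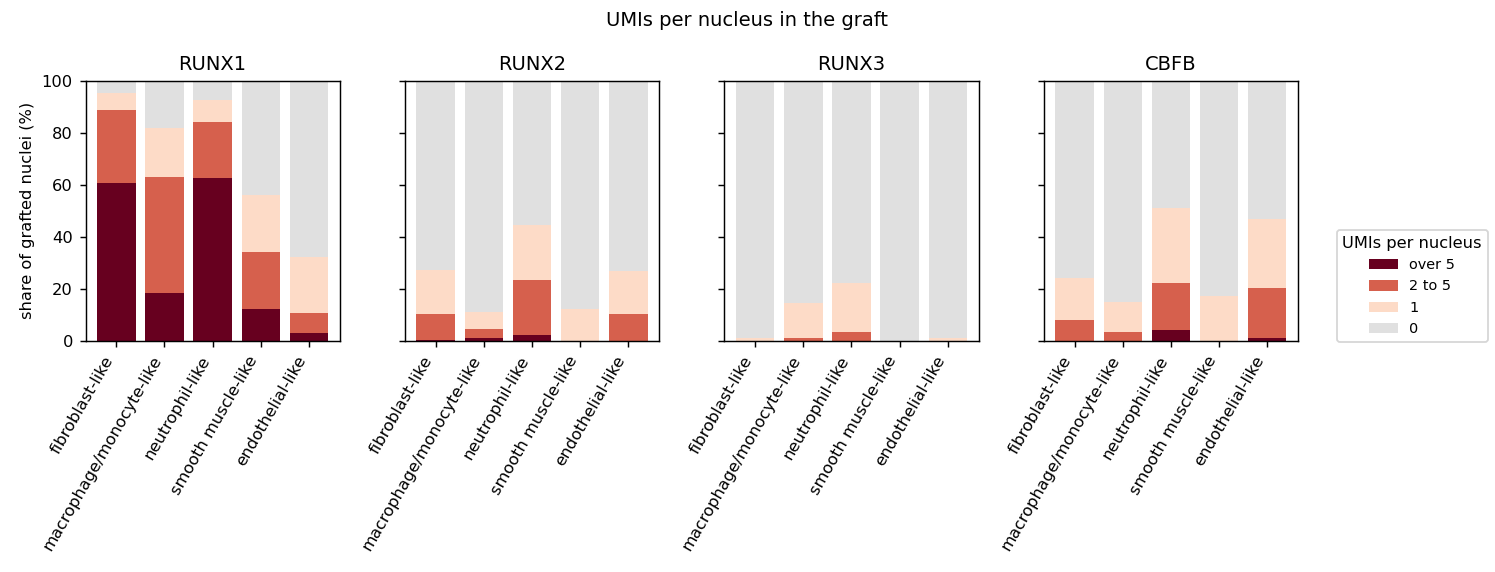
Share of grafted nuclei (%) with 0, 1, 2 to 5 or over 5 UMIs of each member, by cell class. Of the fibroblast-like nuclei 483 of 793 had over 5 RUNX1 UMIs, whereas RUNX2, RUNX3 and CBFB rarely passed 5 in any class.

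RUNX2, the factor of bone formation, was distributed otherwise. In the graft it stood at 204 CPM in fibroblast-like (183 to 226), 168 CPM in macrophage/monocyte-like (120 to 229), 143 CPM in neutrophil-like (115 to 174), 94.3 CPM in endothelial-like (85.4 to 104) and 63.8 CPM in smooth muscle-like nuclei (20.7 to 149). Neighbours in that order overlapped except neutrophil-like and endothelial-like nuclei. The 16 T/NK-like nuclei had 1222 CPM (736 to 1908) from 19 UMIs, the highest level of any grafted class. Smooth muscle-like nuclei, the class in which RUNX2 is known from calcified arteries, had 5 UMIs in 41 grafted nuclei, 1 in 44 nuclei of distended dog 1 and 0 in 40 and 18 nuclei of control dogs 1 and 2.

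Endothelial-like nuclei had 410 RUNX2 UMIs in the graft, 1 and 2 in distended dogs 1 and 2, and 0 and 0 in control dogs 1 and 2. Only the graft had more than 2 UMIs. Against a floor of 3 counts over both controls, the grafted level was 12.2-fold that of control, with an exact lower limit of 9.91. Over distended vein the ratio was 20.8 (7.05 to 101), but 6.88 (1.89 to 57.0) without distended dog 1 and 48.5 (8.66 to 1920) without distended dog 2. The 6.88 rests on 1 nucleus of distended dog 2 that held both of its UMIs. That nucleus lay in cluster 2, with 993 grafted nuclei and 24 of distended dog 2. Whether it came from another library's material was not tested. RUNX2 in grafted endothelial-like nuclei was at 46.3% of its fibroblast-like level, above the 2.34% to 9.53% of fibroblast markers. Neutrophil markers in these nuclei summed to 120 CPM in the graft, 7.78 and 295 CPM in distended vein and 8.62 and 44.5 CPM in control vein, and macrophage markers to 75.7 CPM in the graft, 21.4 and 61.7 CPM in distended vein and 12.9 and 6.36 CPM in control vein. Their part was not tested. The share of positive nuclei was 27.0% in endothelial-like and 27.1% in fibroblast-like nuclei of the graft, with median depths of 3776 and 1804 UMIs. It was 4.24% and 8.01% after thinning to 500 UMIs. After thinning to 200 UMIs it was 2.31% (1.47 to 3.44) and 3.15% (2.05 to 4.62), with overlapping intervals.

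In fibroblast-like nuclei RUNX2 had 351 UMIs in the graft, 4 and 2 in distended dogs 1 and 2, and 0 and 0 in control dogs 1 and 2. Against the floor of 3 counts the grafted level was 7.91-fold that of pooled control, with an exact lower limit of 6.40. This fold comes from control dog 2, since the 49 shallow nuclei of control dog 1 alone give 0.603 against that floor. The grafted level was 26.9 times the pooled distended level (12.2 to 73.7). Without distended dog 1 the ratio to distended vein was 2.75 (0.757 to 22.8), which includes no difference. Unlike RUNX1, RUNX2 was lower in the shallowest grafted nuclei of this class, at 73.1 CPM (38.9 to 125) in the shallowest bin of depth against 225 CPM (193 to 260) in the deepest. Grafted endothelial-like nuclei ran the other way, with 146 CPM (111 to 189) in the shallowest bin and 78.0 CPM (66.4 to 91.2) in the deepest.

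RUNX3, known in lymphocytes and dendritic cells, was mostly counted in classes named from leukocyte markers and in unnamed clusters. In the graft it was at 122 CPM in macrophage/monocyte-like nuclei (81.7 to 175), 37.5 CPM in neutrophil-like (24.3 to 55.4), 4.64 CPM in fibroblast-like (2.00 to 9.14), 2.30 CPM in endothelial-like nuclei (1.10 to 4.23) and 0 UMIs in smooth muscle-like nuclei. The intervals of fibroblast-like and endothelial-like nuclei overlapped, and both the macrophage/monocyte-like and the neutrophil-like class were above them. The 16 T/NK-like nuclei had 322 CPM (104 to 750) from 5 UMIs. Unnamed clusters held 51 of the 128 grafted UMIs, among them 22 in the cluster led by DSCAML1, ACOXL and FLT3 (188 CPM) and 23 in the cluster led by IL5RA (155 CPM). Before grafting, macrophage/monocyte-like nuclei of distended dog 1 had 8 of that library's 12 RUNX3 UMIs, at 191 CPM (82.5 to 376), distended dog 2 had 0 UMIs in 7 nuclei, control dog 1 had 3 in 8 nuclei, which was all of its RUNX3, and control dog 2 had 0 in 19 nuclei. Grafted over pooled distended macrophage/monocyte-like nuclei gave 0.695 (0.310 to 1.76).

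CBFB was the most evenly spread. In the graft it was at 194 CPM in endothelial-like (181 to 208), 165 CPM in fibroblast-like (146 to 185), 149 CPM in neutrophil-like (121 to 181), 143 CPM in macrophage/monocyte-like (99.0 to 200) and 89.4 CPM in smooth muscle-like nuclei (35.9 to 184). All neighbours in that order overlapped. CBFB was at 118% of its fibroblast-like level in endothelial-like nuclei, which held 54.0% of the graft's CBFB UMIs with 39.9% of all its UMIs. In endothelial-like nuclei the level was 194 CPM in the graft, 48.6 and 82.3 CPM in distended dogs 1 and 2, and 43.1 and 31.8 CPM in control dogs 1 and 2. The groups did not overlap, but distended dog 1 (31.5 to 71.8) and control dog 1 (20.7 to 79.2) were within counting error. The nuclei compared also differed in their clusters, those of distended dog 2 being mostly in a cluster led by BTNL9 and ENPP2 among others. How many of all genes kept the groups apart in this way was not counted. The grafted level was 5.04 times control (3.04 to 9.05) and 3.46 times distended vein (2.49 to 4.95). In fibroblast-like nuclei it was 165 CPM in the graft, 53.6 and 73.9 CPM in distended vein, and 0 and 37.1 CPM in control vein, a fold of 4.80 over control (1.86 to 17.7).

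Few UMIs of the family were counted in lymphatic endothelial-like nuclei, the lining of lymph vessels. Each RUNX gene had 0 UMIs in 121 nuclei of distended dog 1, which allows up to 36.5 CPM, and 0 in 33 nuclei of control dog 2, where CBFB was also at 0. CBFB had 2 UMIs in distended dog 1 (24.3 CPM, 2.95 to 87.9). A difference from the fibroblast-like (31.4 CPM of RUNX1) and endothelial-like nuclei (1.95 CPM) of the same library was not detectable at this depth. In the main clustering the graft had 0 nuclei of this class, but at resolution 0.4 a cluster so named held 75 grafted nuclei. In the main clustering, an unnamed cluster with PROX1 and FOXC2 among its leading genes held 44 grafted nuclei. These had 13 RUNX1 UMIs (262 CPM, 139 to 447). In that cluster RUNX1 had 0 UMIs in 28 nuclei of distended dog 1 and 26 of control dog 2. Those counts of 0 allow up to 148 and 415 CPM. Whether these were lymphatic nuclei was not tested.

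Co-detection of the partners was set against the count their shares give at equal depth. In grafted endothelial-like nuclei RUNX2 and CBFB were both positive in 148 of 998 nuclei, against 143 computed from their shares within the 4 bins of depth (ratio 1.03). In fibroblast-like nuclei the same pair gave 75 of 793 against 67.2 (ratio 1.12), and RUNX1 and CBFB gave 188 against 185 (ratio 1.02). In macrophage/monocyte-like nuclei RUNX2 and CBFB were both positive in 6 of 181 nuclei against 3.53 (ratio 1.70), and in neutrophil-like nuclei in 25 of 94 against 26.3 (ratio 0.952). These are counts within 1 library and carry no test.

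The genes most like each member were sought over 12 sums of a library and a class with at least 50 nuclei each, among 6955 genes. The 12 sums share 5 libraries and differ in depth, and 4 of them are grafted, so the correlations are descriptions. RUNX1 was followed most closely by NCKAP1L, a blood cell subunit of the WAVE actin complex (r = 0.98), APBB1IP, an adaptor of integrin activation (0.94), GLIPR1 (0.94), the vascular growth factor VEGFA (0.94) and the carboxypeptidase M gene (0.94). RUNX2 was followed by GPR141, an orphan receptor (0.97), SLC7A5, an amino acid transporter (0.97), INSYN2A (0.96), GALC, a lysosomal enzyme (0.96), and its partner CBFB (0.95). RUNX3 was followed by the co-stimulatory ligand CD86 (0.98), the interleukin-10 receptor IL10RA (0.98), the transporter SLC16A10 (0.98), ACOXL (0.98) and the lymphoid factor IKZF1 (0.98). CBFB was followed by SAP18 (0.97), the kinesin KIF2A (0.96), RRP36 (0.95), RUNX2 (0.95) and the adenosine kinase ADK (0.94). Between members, r was 0.92 for RUNX1 with RUNX2, 0.81 for RUNX1 with CBFB and 0.67 for RUNX1 with RUNX3.

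Cofactors, partner factors and known targets of the family were tested as lists of genes with edgeR on UMIs summed per library. In whole vein 0 of the listed genes were called in any of the 3 comparisons, where 0% of all 13170 tested genes were called at an adjusted p under 0.05. Without adjustment 1162 genes had p under 0.05 for grafted against control, 186 for distended against control and 725 for grafted against distended vein. DESeq2 called 117, 1 and 31 genes in the same order, JUN among the 117 and the 31.

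Corepressors, acetyltransferases and ubiquitin ligases of RUNX (28 genes, all tested) had a median log2 fold change of -0.38 for grafted against control whole vein, with 8 of 28 positive, against a median of 0.12 over all genes. The 4 with the most UMIs were HIPK2, a kinase that phosphorylates RUNX1 (log2 fold change 1.85, SE 0.74), the ubiquitin ligases WWP1 (-1.17, SE 0.88), SMURF2 (1.02, SE 0.74) and SMURF1 (0.73, SE 0.74). HIPK2 was at 169 TMM-scaled CPM in the graft, 43.6 and 66.5 in distended vein and 51.5 and 42.0 in control vein, with the graft above all other libraries.

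Transcription factors that partner with RUNX (32 of 41 tested) had a median of 0.17 with 18 positive. WWTR1, a Hippo coactivator, stood at 0.65 (SE 1.01), TEAD1 at -0.69 (SE 0.97), CEBPD at 1.22 (SE 0.86) and the ETS factor FLI1 at -0.58 (SE 0.91). Blood-lineage targets of RUNX1 and RUNX3 (12 of 34 tested) had a median of 0.37 with 9 positive. The receptor CSF3R stood at 0.10 (SE 1.87), IKZF1 at -0.14 (SE 0.99), CSF1R at 0.84 (SE 1.19) and CD4 at -0.49 (SE 1.65). Skeletal and matrix targets of RUNX2 (18 of 35 tested) had a median of -0.72 with 6 positive. Fibronectin FN1 stood at -1.43 (SE 1.25), FGFR1 at -0.70 (SE 1.14), SPARC at -1.31 (SE 1.11) and COL1A2 at -0.62 (SE 1.29). None of these 4 lists held a called gene in either direction.

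In endothelial-like nuclei, 2.4% of 9309 genes were called for grafted against control (133 higher, 1.43%, and 90 lower, 0.967%), and a fit with the animal as a block called 627. Of the partner factors 1 of 29 was called, JUN, the AP-1 subunit, which was lower. JUN had 99 UMIs in the graft, 837 and 49 in distended dogs 1 and 2, and 82 and 526 in control dogs 1 and 2. Scaled, this was 11.4 CPM in the graft, 939 and 158 CPM in distended and 205 and 2004 CPM in control vein, so the graft was the lowest library. Its log2 fold change was -6.58 (SE 1.58, edgeR adjusted p = 0.0323), called in 12 of 13 alternatives with the adjusted p between 7.48e-06 and 0.0760. The lists of cofactors (25 tested, median -0.63), blood-lineage targets (2 tested, CSF3R at 2.47 with SE 2.37 and KIT at 4.35 with SE 5.64) and RUNX2 targets (11 tested, median -0.80) had 0 calls, beside a median of 0.09 over all genes. SMURF2 (1.49, SE 0.72), HIPK2 (1.98, SE 0.68), WWP1 (-1.21, SE 0.82) and SMURF1 (0.84, SE 0.69) had the most UMIs among the cofactors, WWTR1 (0.94, SE 0.80), TEAD1 (-0.43, SE 0.83) and FLI1 (-0.22, SE 0.81) among the partners. FN1 (-1.14, SE 0.91), FGFR1 (-1.95, SE 1.01), SPARC (-2.51, SE 1.02) and TGFBR1 (1.98, SE 0.79) did so among the RUNX2 targets.

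In fibroblast-like nuclei, 2.04% of 7220 genes were called for grafted against control (26 higher, 0.36%, and 121 lower, 1.68%). A fit that took the animal into account as a block called 4 genes. Called lower were CBFA2T3, a corepressor of the ETO family (1 of 22 cofactors), JUN (1 of 26 partner factors) and PTH1R, the parathyroid hormone receptor (1 of 13 RUNX2 targets). Blood-lineage targets had 0 calls of 2 tested, CSF1R at -1.32 (SE 1.48) and CSF3R at 0.31 (SE 1.66). JUN had 27 UMIs in the graft, 2143 and 4 in distended dogs 1 and 2, and 2 and 104 in control dogs 1 and 2 (log2 fold change -5.59, SE 1.69, edgeR adjusted p = 0.0481). CBFA2T3 had 3 UMIs in the graft, 52 and 0 in distended vein, and 0 and 11 in control vein (-5.65, SE 1.57, edgeR adjusted p = 0.0274). PTH1R had 3 UMIs in the graft, 29 and 2 in distended vein, and 1 and 12 in control vein (-6.02, SE 1.57, edgeR adjusted p = 0.0183). In the fit with the animal as a block the edgeR adjusted p was 0.397 for JUN, 0.722 for CBFA2T3 and 0.742 for PTH1R, and without control dog 2, the control with most of the nuclei, CBFA2T3 turned to 3.21. Across the alternatives with a p, the call was kept in 2 of 14 for JUN (edgeR or DESeq2 adjusted p 0.0302 to 0.996), 4 of 10 for CBFA2T3 (0.00135 to 0.996) and 5 of 12 for PTH1R (0.000241 to 0.996). Leaving out either control dog ended all of these calls. The cofactors had a median of -0.44 and the RUNX2 targets of -0.96, beside 0.29 over all genes.

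Other genes of these lists with many UMIs in fibroblast-like nuclei had no call. They were HDAC4 (-0.66, SE 1.26), HIPK2 (2.86, SE 1.27) and KAT6B (-1.37, SE 1.28) among cofactors, and TEAD1 (-0.16, SE 1.24), FOS (-4.15, SE 1.55) and WWTR1 (1.84, SE 1.24) among partners. Of the RUNX2 targets, FGFR1 stood at 0.88 (SE 1.20), COL1A2 at -0.59 (SE 1.28) and FN1 at -1.0 (SE 1.28). For distended against control, 0 genes of the 4 lists were called in either class, where edgeR called 0 of 9309 and 0 of 7220 genes, and 314 and 86 genes had p under 0.05 before adjustment. DESeq2 called 0 in both. For grafted against distended, 0.999% of genes were called in endothelial-like nuclei (0.838% higher and 0.161% lower) and 2.73% in fibroblast-like nuclei (0.942% higher and 1.79% lower). In endothelial-like nuclei none of the listed genes was called, JUN standing at -5.58 (SE 1.5, edgeR adjusted p = 0.0849). In fibroblast-like nuclei CBFA2T3 (-5.03, SE 1.48, edgeR adjusted p = 0.0339) and JUN (-6.90, SE 1.80, edgeR adjusted p = 0.0140) were called lower. The distended UMIs of both were nearly all from dog 1, and without it JUN had an edgeR adjusted p of 1 and CBFA2T3 was too low to test. In the fit with the animal as a block the edgeR adjusted p was 0.0366 for JUN and 0.346 for CBFA2T3. Both comparisons use the same grafted library. These counts depended on single libraries. With 1 library left out they were 0 to 432 in endothelial-like and 0 to 2263 in fibroblast-like nuclei, the 0 in both without distended dog 1 and the highest without distended dog 2. The fit with the animal as a block called 136 genes higher and 140 lower in endothelial-like nuclei, against 78 and 15 without it, and 138 higher and 21 lower in fibroblast-like nuclei, against 68 and 129 without it.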

How the data were processed

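Single-nucleus RNA libraries (10x Genomics 3' chemistry, per the labels' protocols) were deposited as tables of raw UMI counts, which the authors made with Cell Ranger 7.0.0 per the submitters' processing notes. No build is named there or in the labels, so coordinates and sequences are not printed. The 24 features without a gene's name held 0.588% to 11.5% of UMIs and stayed out of all totals. Barcodes with at least 100 detected genes were kept (6855 of 7391). Nuclei were clustered with scanpy 1.11.5 without the 4 members (2000 variable genes, 20 components, 15 neighbours, Leiden resolution 0.8). A class needed at least 3 detected markers and 1.5 times those of any other list; mixed clusters were split again at resolution 1.5. Scrublet marked 40 nuclei (0.584%), which were kept. No correction for RNA from outside the nuclei was run.

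CPM are UMIs per 1000000 UMIs of named features without the 4 dominant ones. Shares carry Clopper-Pearson and levels exact Poisson 95% intervals; folds of pooled counts carry exact binomial intervals. Counts were summed per library and, for genes of the lists, tested with edgeR 4.0.16 (TMM, filterByExpr, quasi-likelihood test, two-sided, Benjamini-Hochberg adjustment over all genes, threshold 0.05) in R 4.3.3, with all groups in 1 fit, which lets the single graft take its spread from the replicated groups. DESeq2 1.42.0 was an alternative. On simulated counts the grafted-against-control test recovered 35 of 100 genes changed 4-fold and 91 of 100 changed 16-fold, among 11801 genes tested, with 5 false calls. The simulation gave every gene the same fixed spread, which was not estimated from these libraries. These shares therefore need not hold for the real counts. P-values measure the spread among the control and among the distended libraries, since the single graft adds none. They do not cover the spread between grafts. The main fit treated libraries of the same dog as independent.

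Libraries with the same dog number come from the same animal, per the labels; the difference of dog 1 from dog 2 correlated at -0.36 between distended and control vein over 9371 genes. A lasting difference between the animals would give a positive sign, but these are whole-vein sums, whose cell composition also reversed. Fibroblast-like nuclei made up 6.41% and 37.5% of control dogs 1 and 2, and 57.5% and 20.3% of distended dogs 1 and 2. The part of composition in the sign was not tested. Whether the dog numbers of these libraries are right was not tested either, so the within-dog and blocked values rest on the labels. The members and the lists were chosen with earlier results of these data known. Named are the 4 members, each list's called genes (up to 6), otherwise the listed genes of highest UMIs up to 4, and the 5 genes most correlated with each member on log2(CPM + 10) among genes with at least 200 UMIs.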

Additional observations from a re-analysis of the deposited data

How the results depend on the processing

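Counts of called genes depended on the tool, the filter and single libraries. Against 0 calls in whole vein, DESeq2 gave 117 for grafted against control, 31 for grafted against distended and 1 for distended against control, and edgeR without a filter on low counts gave 287, 144 and 11. Leaving out 1 library at a time gave 0 to 646, 0 to 432 and 0 to 219 calls in the same order, with the highest counts for grafted against control and for distended against control without distended dog 1 and for grafted against distended without distended dog 2. In endothelial-like nuclei the 223 calls for grafted against control became 584 without the filter, 385 with at least 200 detected genes per nucleus, 98 without the 4 dominant features, 391 when clustered without them and 398 to 720 with 1 library left out. The 0 calls for distended against control there became 17, 1 and 6 without the filter, with at least 200 genes and when clustered without the dominant features, and 0 to 26 with 1 library left out. In fibroblast-like nuclei the 147 calls for grafted against control became 50 with DESeq2, 23 without the filter, 14 with at least 200 genes, 45 without the dominant features and 4 to 286 with 1 library left out, the 4 without control dog 2, where control vein was 49 shallow nuclei of dog 1 and the median over all genes was 6.48. Distended against control gave 0 to 2 there. With the animal as a replicate block, calls for grafted against control were 627 in endothelial-like and 4 in fibroblast-like nuclei, and those for distended against control 2 in endothelial-like nuclei; in whole vein they were 0. The crossed pairing, chosen after seeing the data, gave 138, 20 and 9 calls in whole vein, 3 for distended against control in endothelial-like and 5 for grafted against control in fibroblast-like nuclei.

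The log2 fold changes of the members in whole vein, on TMM-scaled counts, were 3.87 for RUNX1, 3.03 for RUNX2, 1.19 for RUNX3 and 1.73 for CBFB for grafted against control. With 1 library left out they stayed above 0, at 3.31 to 5.08, 2.98 to 3.20, 0.86 to 1.90 and 1.44 to 2.25. Grafted against distended gave 2.79 to 4.80 for RUNX1, 2.81 to 3.89 for RUNX2 and 0.41 to 8.14 for RUNX3, the highest without distended dog 1, which leaves distended dog 2 with its 0 RUNX3 UMIs. Distended against control changed sign for RUNX2 (-0.84 to 0.23) and RUNX3 (-6.96 to 0.86) without distended dog 1. For RUNX1 it also took both signs (-0.90 to 1.58), and for CBFB it stayed above 0 (0.12 to 0.93). The fold of RUNX1 over distended vein in fibroblast-like nuclei was 30.0 when clustered without the dominant features. At resolution 0.4 none of the control nuclei was named endothelial-like, so that comparison was not made. The cause of these shifts was not tested. Control vein held 9 RUNX1 UMIs in fibroblast-like and 4 in endothelial-like nuclei, and these counts limit the precision of each fold.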
